A study of Drosophila melanogaster with 20 samples.

Results

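Drosophila SL2 cells that had been given SPS1 double-stranded RNA (dsRNA) were compared at day 5 and at day 1, to describe how RNA levels moved over the full course inside the treated cultures. The samples were chosen by their titles: 2 samples of SPS1 dsRNA cells at day 5 and 5 at day 1, together 7 of the 20 arrays. All 18769 probe sets other than the array maker's controls were compared, out of 18952 on the Affymetrix Drosophila Genome 2.0 array. SL2 is a line started from fly embryos that resembles blood cells, and it was kept in serum-free insect medium. The dsRNA was put straight into the medium, and the cells were split after 24 hours. Treated cells at day 3 (2 samples) were used for the time order, and untreated SL2 cells at day 1 (5 samples), day 3 (2 samples) and day 5 (2 samples) for the course without dsRNA. Untreated cells got no dsRNA of any kind, so SPS1 loss and exposure to dsRNA cannot be told apart. Day 1 and day 5 also differ in time since plating and splitting, an interval that the untreated course also spans.

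SPS1 is one of a pair of fly relatives of selenophosphate synthetase, the enzyme that makes the selenium donor for selenoproteins. The other relative, Sps2, is itself a selenoprotein. Added dsRNA is cut by fly cells into small RNAs that guide the breakdown of matching messages, so the targeted message falls first and the protein follows as it turns over. SL2 cells carry the Imd and Toll immune pathways, which switch on genes for secreted antimicrobial peptides, and they take up particles through receptors of blood cells.

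Each value is a log2 unit of the authors' RMA summary, so a difference of 1 is a 2-fold change. A probe set was called when its adjusted p from limma, corrected over all 18769 probe sets, was under 0.05. Array medians lay between 4.56 and 4.68 at day 1 and between 4.55 and 4.69 at day 5 in treated cells, and no array was rescaled. The 2 day 5 samples stood 0.351 log2 units apart (root mean square over probe sets), more than any pair of day 1 samples (0.162 to 0.316). Among the day 1 samples, replicates 1 and 5 lay 0.177 apart and replicates 2, 3 and 4 lay 0.162 to 0.219 apart. The excess of 3′ over 5′ signal in the GAPDH controls was 1.32 to 1.56 at day 1 and 1.16 to 1.36 at day 5, and its part in the results was not tested. One label field of the day 5 treated samples reads as no treatment, whereas the title and description of each give SPS1 dsRNA, and the titles were followed. In the library labelled untreated day 1 replicate 4, sgll measured 7.76, inside the treated day 1 range of 7.64 to 8.14. Untreated day 3 replicate 2 (7.97) and untreated day 5 replicates 1 and 2 (7.93 and 8.10) also lay inside that range. The difference of the courses is also given without untreated day 1 replicate 4, chosen after seeing the data. No probe set carried the name Sps1 or SelD in the annotation used here, so the targeted gene was not measured by name. Its relative Sps2 measured 8.08, 8.67, 8.78, 8.64 and 8.34 at day 1 and 8.31 and 8.29 at day 5, a difference of -0.20 (SE 0.23, adjusted p = 0.8845). The Sps2 values of the 2 days overlapped.

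The labelled cell line was set against blood cell markers. Means at day 1 were 10.01 for the GATA factor srp, 9.82 for its partner ush, 11.61 for the secreted protein Glt, 8.47 for the scavenger receptor crq and 9.07 for the engulfment receptor drpr. NimC1 at 4.51 and eater at 4.50 lay just below the array medians, and He at 3.62 and Sr-CI at 3.69 lay below the lower quartile of every array (3.73 to 3.87). The markers named here are a selection. Over the 18 measured phagocytic receptors and plasmatocyte markers the median level, averaged over all samples, was 5.16, so high levels were not general among them. The 5 measured muscle markers, averaged per sample, lay at 3.44 to 3.63 at day 1 and 3.49 to 3.57 at day 5. The 5 fat body markers lay at 4.38 to 4.55 and at 4.33 to 4.57.

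Between day 1 and day 5, 395 probe sets were called (2.1% of those tested), 221 higher at day 5 (1.18%) and 174 lower (0.927%). An unadjusted limma p under 0.05 was found for 2083 of all 18769 probe sets. That is the background for the counts of list members at that level. The 15 largest rises included genes of the antimicrobial response, the phagocytic receptor eater, the glycosidase genes Ect3 and LManI and the RNase P subunit gene Rpp14b. They also held ome, Nepl4 and 5 genes known only by number, most of which rose more than Ect3 and LManI. The strongest falls were in sgll, which encodes the enzyme that makes active vitamin B6, in the lipocalin Karl and in several genes known only by number. At least 2-fold changes made up 182 of the calls, 96 higher and 86 lower. In all 395 the day 5 values lay outside the day 1 range, which held for 15.3% of all probe sets (6.67% above and 8.6% below). The median difference over all probe sets was -0.01, with 90% of them between -0.30 and 0.33. Called probe sets that rose had a median level of 6.66, and those that fell had one of 8.72. Of the 395, 336 named 1 gene, giving 322 genes, 171 higher and 151 lower.

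**Figure D1:**
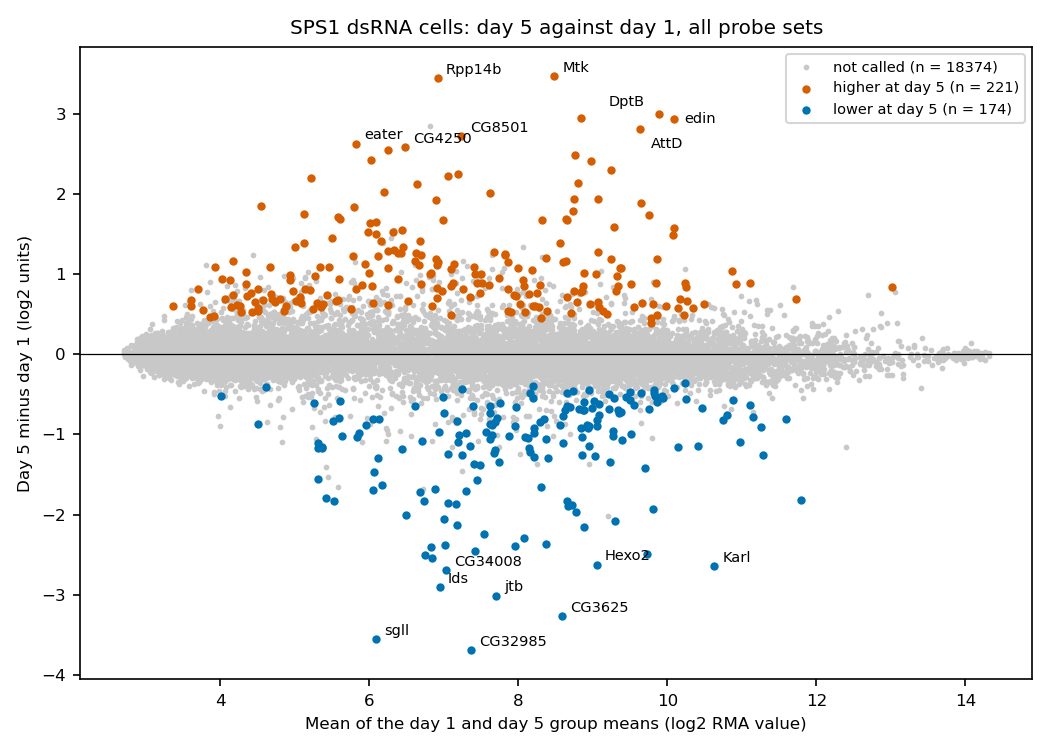
Day 5 minus day 1 in SPS1 dsRNA cells (log2 units, vertical) against the mean of the 2 group means (log2 RMA value, horizontal), 1 point per probe set. The 221 called rises are orange, the 174 called falls blue, the others grey, and the 8 largest changes in each direction among the named genes are labelled.

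Both day 5 samples entered every call, and they did not weigh alike. Among the 174 called falls, 159 (91.4%) were deeper in day 5 replicate 1 than in replicate 2, against 99 (44.8%) of the 221 called rises that were higher in replicate 1. Replicate 1 lay above replicate 2 in 52% of all probe sets. Without replicate 1, 198 probe sets were called, 140 higher and 58 lower, and without replicate 2 there were 337, 120 higher and 217 lower. Without day 1 replicate 4 there were 257. The 15 largest rises and 15 largest falls among genes with 1 symbol are described next, and their folds run from 4.59 to 11.1 for the rises and from 5.18 to 13.0 for the falls.

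CG32985, a gene without a given role here, had the largest fall. It measured 9.39, 8.87, 9.11, 9.18 and 9.49 at day 1 and 4.64 and 6.39 at day 5. All day 1 samples were high, and replicate 1 of day 5 was far lower than replicate 2. The difference was -3.70 (SE 0.38, adjusted p = 0.0008178), a 13.0-fold fall. It was -2.82 without day 5 replicate 1 and -4.57 without replicate 2, and without replicate 1 the fall of sgll was the larger.

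The gene sgll encodes pyridoxine phosphate oxidase, which completes the synthesis of pyridoxal phosphate, the cofactor form of vitamin B6. It measured 8.02, 7.64, 7.85, 7.69 and 8.14 at day 1 and 4.41 and 4.21 at day 5. The groups stood well apart, the day 5 samples were close to each other, and the day 5 values were near the array medians. The difference was -3.56 (SE 0.14, adjusted p = 1.36e-06), and it was -3.66 without day 5 replicate 1 and -3.46 without replicate 2.

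CG3625 measured 10.39, 10.05, 10.15, 10.11 and 10.40 at day 1 and 6.34 and 7.56 at day 5. Its difference was -3.27 (SE 0.27, adjusted p = 0.0002007). All day 5 values lay far below all day 1 values. For jtb the day 1 values were 9.58, 8.89, 9.01, 8.93 and 9.65 and the day 5 values 5.01 and 7.38. Its difference was -3.01 (SE 0.50, adjusted p = 0.01178), and it ranged from -1.83 without day 5 replicate 1 to -4.20 without replicate 2. The size of the jtb fall therefore depended on which day 5 sample was used, while the call held in each left-out fit.

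Karl, which encodes a secreted carrier protein of the lipocalin family, measured 11.87, 12.02, 11.94, 12.02 and 11.91 at day 1 and 8.33 and 10.29 at day 5. Its difference was -2.64 (SE 0.41, adjusted p = 0.008303). The day 1 samples were tightly grouped and the day 5 samples were not. A second Karl probe set differed by -2.50 (adjusted p = 0.00731). The value from the first Karl probe set was -1.66 without day 5 replicate 1 and -3.62 without replicate 2.

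Nnf1b encodes a kinetochore protein, part of the complex that joins chromosomes to spindle fibres. It measured 8.01, 7.95, 7.97, 7.99 and 8.21 at day 1 and 5.48 and 5.77 at day 5. The groups did not overlap, and the difference was -2.40 (SE 0.14, adjusted p = 2.342e-05). It was already called lower at day 3 (-0.94, adjusted p = 0.04398). Atox1, a copper chaperone gene, measured 9.59, 8.93, 8.83, 8.85 and 9.57 at day 1 and 6.23 and 7.29 at day 5. Its difference was -2.40 (SE 0.30, adjusted p = 0.002412), and its day 1 replicates 1 and 5 lay above the other 3. That order of the day 1 samples was seen in 11 of the 15 largest falls and 7 of the 15 largest rises. How many of all probe sets have that order was not counted, so it is not shown to be particular to these genes.

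CG44014 had 3 probe sets that all fell, with differences of -2.51, -2.06 and -1.16. The first was also called lower at day 3 (-1.23, adjusted p = 0.04624). CG1572 fell by 2.45 (SE 0.16, adjusted p = 6.038e-05), while CG34008 fell by 2.69 and CG4210 fell by 2.37. Mctp, a gene for a membrane protein with calcium-binding C2 domains, fell by 2.55, but the call was lost in 4 of the 9 fits that left out 1 sample. Its second probe set lay at a mean of 3.46 and differed by -0.24 (adjusted p = 0.4679). The remaining falls, Ids, Hexo2 and GNBP3, are given with their gene groups.

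**Figure D2:**
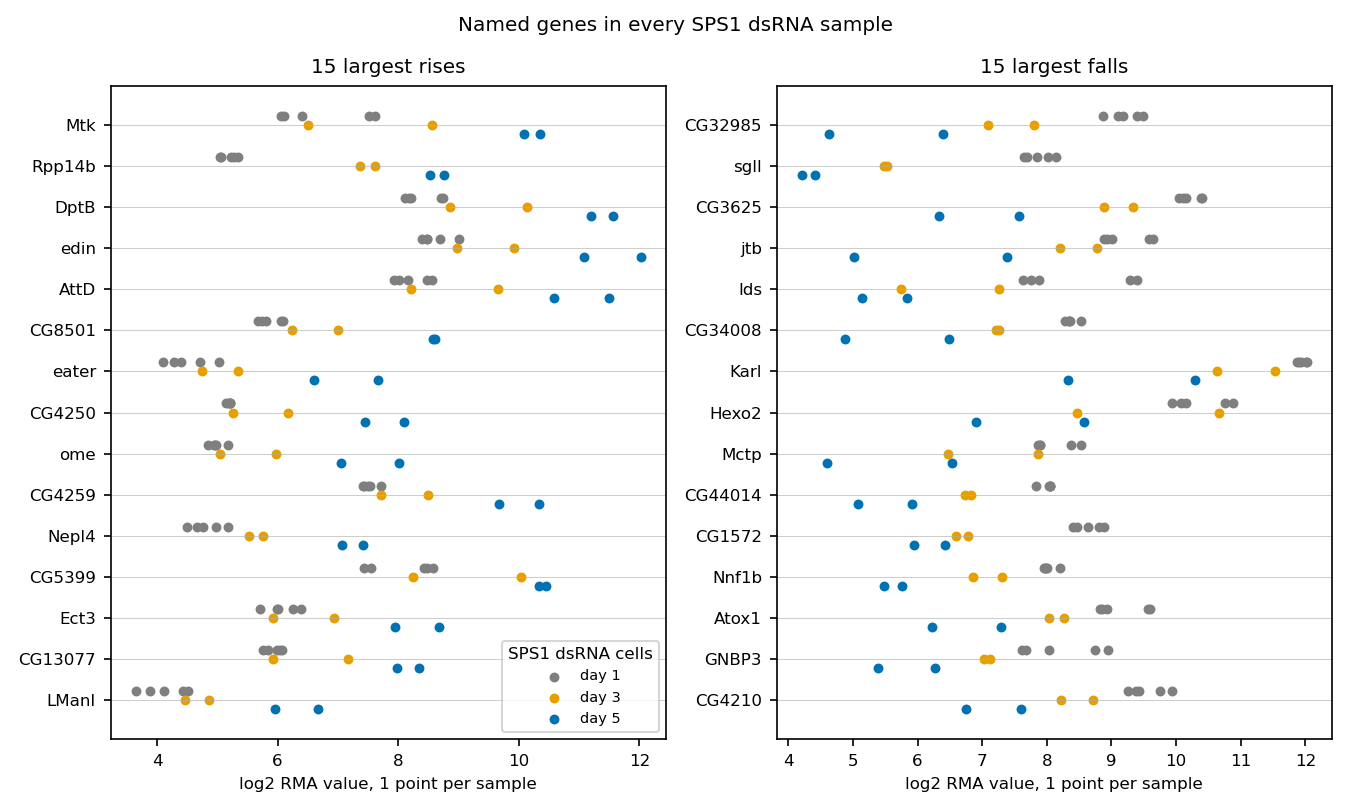
log2 RMA value (horizontal) of the 15 largest rises and the 15 largest falls (vertical, by gene) in SPS1 dsRNA cells, with 1 point per sample at day 1 (5, grey), day 3 (2, orange) and day 5 (2, blue). Day 1 and day 5 points do not overlap for any of the 30 genes, and in 14 of the 15 falls the lower blue point is day 5 replicate 1.

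Rpp14b, which encodes a protein of the RNase P family that processes transfer RNA ends, measured 5.07, 5.34, 5.05, 5.29 and 5.22 at day 1 and 8.76 and 8.52 at day 5. The spread within each day was small beside the gap. The rise was 3.45 (SE 0.12, adjusted p = 7.777e-07), or 10.9-fold. CG8501 measured 5.67, 6.06, 6.09, 5.74 and 5.81 at day 1 and 8.57 and 8.62 at day 5, a rise of 2.72 (SE 0.19, adjusted p = 8.628e-05). Nepl4, of the neprilysin family of metallopeptidases, measured 4.50, 5.17, 4.98, 4.76 and 4.66 at day 1 and 7.41 and 7.08 at day 5, a rise of 2.43 (SE 0.18, adjusted p = 9.186e-05). For Rpp14b, CG8501 and Nepl4 the day 5 samples were close to each other.

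The gene ome, of the dipeptidyl peptidase family, rose by 2.55 (SE 0.27, adjusted p = 0.0009308) on 1 probe set. Its other 3 probe sets lay at means of 3.31 to 4.11 and differed by -0.12, -0.09 and 0.04, with no call. CG4250 rose by 2.59, CG4259 by 2.49 and CG13077 by 2.23. CG5399 rose by 2.30 (SE 0.45, adjusted p = 0.02662), a call that was lost in 5 of the 9 left-out fits.

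Antimicrobial peptide genes formed the group with the highest median. Of 7 measured members, represented by the brightest probe set of each gene, 5 rose and 0 fell, with a median difference of 2.81. Over the 11982 named genes taken the same way, 2.58% were called, 1.34% higher and 1.24% lower, with a median of -0.02. Mtk encodes metchnikowin, and it measured 7.61, 6.06, 6.41, 6.10 and 7.51 at day 1 and 10.35 and 10.08 at day 5. Its day 1 values fell into a higher pair (replicates 1 and 5) and a lower trio, and all lay below day 5. The rise was 3.48 (SE 0.56, adjusted p = 0.01004). The Mtk call was lost without either day 5 sample, with adjusted p = 0.09295 and 0.05093, at differences of 3.34 and 3.61.

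DptB, a diptericin gene, measured 8.71, 8.21, 8.11, 8.17 and 8.73 at day 1 and 11.56 and 11.20 at day 5, a rise of 2.99 (SE 0.30, adjusted p = 0.0007568). The gene edin, named for its induction by infection, measured 8.70, 8.48, 8.48, 8.40 and 9.02 at day 1 and 12.02 and 11.09 at day 5, a rise of 2.94 (SE 0.29, adjusted p = 0.000638). In both genes each day 5 sample lay above every day 1 sample. The attacin gene AttD rose by 2.81 (SE 0.36, adjusted p = 0.002693), from 7.93 to 8.56 at day 1 to 11.50 and 10.59 at day 5. The cecropin gene CecB rose by 2.01 (SE 0.28, adjusted p = 0.004656), to 9.26 and 7.99 at day 5. Drs, the drosomycin gene, differed by 1.55 (adjusted p = 0.1151) and Def, the defensin gene, by 0.19 (adjusted p = 0.5523). Neither passed the test. Without day 5 replicate 1, and again without replicate 2, 4 of the 7 genes were called.

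Of 15 measured members of the Imd pathway, 2 rose and 0 fell, with a median of 0.05. Both are known to restrain the pathway. The intracellular inhibitor pirk measured 5.34, 5.86, 5.85, 5.84 and 5.55 at day 1 and 7.16 and 6.82 at day 5, and the membrane protein PGRP-LF measured 6.41, 6.17, 6.41, 6.20 and 6.53 and then 7.52 and 7.48. Neither gene's groups overlapped. The rises were 1.30 (SE 0.17, adjusted p = 0.002693) for pirk and 1.16 (SE 0.14, adjusted p = 0.002178) for PGRP-LF. A further inhibitor, the peptidoglycan amidase PGRP-LB, differed by 0.72 (adjusted p = 0.0511). The inhibitor genes casp and PGRP-SC2 of the same list had no call. They differed by -0.18 and 0.07 from day 1 to day 3, and by 0.08 and 0.13 from day 3 to day 5.

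Of 16 members of the Toll pathway, 1 rose and 1 fell, with a median of 0.01. The receptor gene Tl rose by 0.79 (SE 0.11, adjusted p = 0.004821). GNBP3, which recognises fungal glucan upstream of Toll, measured 8.75, 8.04, 7.68, 7.61 and 8.95 at day 1 and 5.39 and 6.27 at day 5. All its day 5 values were lower than all its day 1 values, and the level fell by 2.38 log2 units (adjusted p = 0.008323). The GNBP3 call was lost without day 5 replicate 1 (difference -1.94, adjusted p = 0.09961). In the JAK-STAT list 1 of 7 rose, the thioester protein gene Tep4 (0.69, adjusted p = 0.01818), a call lost without day 5 replicate 1, day 1 replicate 3 or day 1 replicate 4. Of 15 genes of the JNK pathway and apoptosis, 1 rose, the TNF ligand egr (0.69, adjusted p = 0.004094), and 1 fell, the Bcl-2 family gene Debcl (-1.05, adjusted p = 0.004691), whose call was lost without day 5 replicate 1.

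Phagocytic receptors and plasmatocyte markers counted 18 measured members, of which 3 rose and 0 fell, with a median of 0.10. The receptor gene eater, through which blood cells bind and engulf bacteria, measured 4.71, 4.11, 4.28, 4.40 and 5.03 at day 1 and 6.61 and 7.66 at day 5. It went from the level of the array medians to well above them, and the rise was 2.63 (SE 0.30, adjusted p = 0.001636). The other 2 were Pxn and Tig, which are also in the basement membrane list. Of the 18 genes, 2 were called without day 5 replicate 1 and 1, eater, without replicate 2. The Tig call was lost in 7 of the 9 left-out fits and the Pxn call without day 5 replicate 2. The mean over the 18 genes was 6.28 to 6.47 in the day 1 samples and 6.65 and 6.93 at day 5. Because the measurement is of bulk RNA, more cells of a type and more RNA per cell cannot be told apart.

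Basement membrane and integrin genes numbered 21, and 7 rose and 0 fell, with a median of 0.35. Pxn, the peroxidase that crosslinks collagen in this sheet, measured 5.90, 6.09, 5.96, 5.84 and 5.86 at day 1 and 7.64 and 8.07 at day 5, a rise of 1.93 (SE 0.30, adjusted p = 0.00863). SPARC, a collagen-binding protein, rose by 0.84, from 12.53 to 12.76 at day 1 to 13.53 and 13.33. The laminin chain LanB1 rose by 0.89, the integrin-binding tiggrin gene Tig by 0.85 and the collagen lysyl hydroxylase Plod by 0.71. The integrin alpha chains if and scb rose by 1.03 and by 0.68. The collagen IV chains Col4a1 and vkg differed by 0.12 and by -0.04, without a call. These calls were near the threshold: 1 of the 21 was called without day 5 replicate 1, and 2 without replicate 2, while the medians were 0.54 and 0.48.

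Lysosomal hydrolases moved in both directions, with 3 of 24 higher, 2 lower and a median of 0.03. The beta-galactosidase gene Ect3 measured 6.248, 5.701, 6.009, 5.996 and 6.381 at day 1 and 8.69 and 7.95 at day 5, a rise of 2.25 (SE 0.28, adjusted p = 0.002328). The alpha-mannosidase genes LManI and LManII rose by 2.20 (SE 0.26, adjusted p = 0.001654) and by 1.68 (SE 0.20, adjusted p = 0.002127). The calls of Ect3, LManI and LManII held in each of the 9 left-out fits. The iduronate sulfatase gene Ids measured 9.28, 7.64, 7.76, 7.89 and 9.40 at day 1 and 5.14 and 5.84 at day 5, a difference of -2.90 (SE 0.56, adjusted p = 0.02508). The hexosaminidase gene Hexo2 measured 10.76, 9.94, 10.08, 10.15 and 10.88 and then 6.91 and 8.57, a difference of -2.62 (SE 0.56, adjusted p = 0.04238). In both, day 1 replicates 1 and 5 were the highest, and the groups did not overlap. The Ids call was lost without either day 5 sample (adjusted p = 0.2095 and 0.06774), and the Hexo2 call in 6 of the 9 left-out fits. None of 20 autophagy genes was called by limma (2 at an unadjusted p under 0.05), with a median of 0.05 and 1 called higher without day 5 replicate 1.

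Of 20 vitamin B6 and pyridoxal phosphate-dependent enzymes, 2 rose and 2 fell, with a median of -0.04. Besides sgll, the fall was in Cbs, the cystathionine beta-synthase gene, which measured 9.21, 9.71, 9.66, 9.66 and 9.38 at day 1 and 8.25 and 8.49 at day 5. Its difference was -1.15 (SE 0.16, adjusted p = 0.004155), a call lost without day 5 replicate 1. The ornithine aminotransferase gene Oat, which links ornithine to glutamate and proline, measured 7.94, 7.73, 7.52, 7.54 and 7.91 at day 1 and 10.02 and 9.72 at day 5. The Oat groups stood far apart, with a rise of 2.14 (SE 0.14, adjusted p = 6.038e-05). Alas, which starts heme synthesis, rose by 0.87 (SE 0.12, adjusted p = 0.004394). In the list of glutamine, glutamate and proline genes 2 of 13 rose, Oat and the hexosamine enzyme Gfat1 (0.82, adjusted p = 0.0451), the latter lost in 7 of the 9 left-out fits.

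None of the 10 measured genes of the selenium pathway was called by limma (3 at an unadjusted p under 0.05), with a median of -0.21 and values from -0.42 for the selenoprotein gene BthD (adjusted p = 0.1086) to 0.43 for SecS. Of 14 one-carbon and ATF4 response genes, 2 rose: the sestrin gene Sesn by 1.08 (adjusted p = 0.01046) and the phosphoserine phosphatase gene aay by 0.59 (adjusted p = 0.0273). Without day 5 replicate 2, 0 of the 14 were called. The list median was 0.22.

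Glycolysis and gluconeogenesis had 3 of 16 genes higher and 2 lower, with a median of -0.02. The glycerol phosphate dehydrogenase gene Gpdh1 measured 8.82, 8.72, 8.85, 8.88 and 8.91 at day 1 and 9.72 and 9.91 at day 5, a rise of 0.98 (SE 0.09, adjusted p = 0.0005151). Its groups were far apart relative to their spread, and the call held in all 9 left-out fits. The phosphoenolpyruvate carboxykinase genes Pepck1 and Pepck2 rose by 1.74 (adjusted p = 0.02322) and by 0.78 (adjusted p = 0.03445). The phosphoglucomutase gene Pgm1 fell by 1.87 (adjusted p = 0.03033) and the fructose bisphosphatase gene fbp fell by 1.79 (adjusted p = 0.04922). These 4 calls were lost in 5, 6, 5 and 8 of the 9 left-out fits, in that order.

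Of 24 piRNA pathway genes, 1 rose and 3 fell, with a median of -0.01. The helicase gene armi measured 9.29, 9.72, 9.52, 9.62 and 9.30 at day 1 and 7.92 and 8.54 at day 5, a difference of -1.26 (SE 0.17, adjusted p = 0.003974). The Argonaute gene aub fell by 1.09 (SE 0.14, adjusted p = 0.002647), and both calls held in all 9 left-out fits. The gene squ fell by 0.92 (adjusted p = 0.03887) and cuff rose by 0.94 (adjusted p = 0.008863), with losses in 6 and 1 of the 9 fits. The list of 12 siRNA and miRNA pathway genes also holds the antiviral gene pst. No other member was called, and only pst fell. It measured 9.71, 9.46, 9.65, 9.71 and 9.79 at day 1 and 7.94 and 7.61 at day 5, a difference of -1.89 (SE 0.12, adjusted p = 5.58e-05).

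Of 34 glutathione S-transferase genes 3 rose and 0 fell, with a median of 0.06. GstE2 rose by 1.50 (adjusted p = 0.01493), GstO3 by 1.07 (adjusted p = 0.005431) and GstD5 by 0.94 (adjusted p = 0.008303). With either day 5 sample left out, 1 of the 34 was called. Among 17 amino acid transporters 1 fell, CG5535 (-1.89, adjusted p = 0.03472), whose difference was -0.93 without day 5 replicate 1 and -2.85 without replicate 2. Of 41 cytosolic ribosomal protein genes 1 fell, RpS10a (-1.15, adjusted p = 0.03887), a call lost in 7 of the 9 left-out fits, and the median was -0.002.

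Markers of other cell types gave 2 calls. The germline list had 1 of 5 lower, gammaTub37C, a gamma-tubulin known from the female germline, which measured 8.69, 8.56, 8.49, 8.59 and 8.98 at day 1 and 6.14 and 6.71 at day 5. Its groups did not overlap, and the level fell by 2.24 log2 units (SE 0.18, adjusted p = 0.0002007). The germline genes vas, osk and orb lay at day 1 means of 3.79, 4.26 and 3.01, below the array medians. Of 6 neuron and glia markers, moody fell by 0.48 (adjusted p = 0.04404), lost in 7 of the 9 left-out fits. None of 9 crystal cell and lamellocyte markers was called by limma (2 at an unadjusted p under 0.05), among them the lamellocyte enzyme PPO3 at -1.16 (adjusted p = 0.1151). Their list medians were 0.06, -0.07 and -0.03. The muscle and fat body lists had no call by limma and 0 genes at an unadjusted p under 0.05, with medians of 0.003 and -0.004. Averaged per sample, the germline list lay at 4.68 to 4.79 at day 1 and 4.34 to 4.56 at day 5. The neuron and glia list lay at 5.54 to 5.67 and 5.46 to 5.55, and the crystal cell and lamellocyte list at 6.02 to 6.21 and 5.90 to 6.01.

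Of the 36 lists, 17 with 402 entries had no call by limma, and their medians ran from -0.23 to 0.11. Those not yet described were aminoacyl-tRNA synthetases, the TCA cycle, oxidative phosphorylation, cell cycle and DNA replication, ribosome biogenesis, mitochondrial ribosomal proteins, the proteasome, the vacuolar ATPase, heat shock, ER stress, antioxidant defence and the ecdysone response. The proteasome list had the lowest median, and each of its 27 genes measured lower at day 5, with differences from -0.40 to -0.08. None had a call and 12 were at an unadjusted p under 0.05, as were 2083 of all 18769 probe sets. In 14 of the 27 the 2 day 5 values lay below every day 1 value, which 8.6% of all probe sets did. In untreated cells 19 of the 27 were also lower at day 5, with a list median of -0.06, where 56.7% of all probe sets were lower. For the difference of the courses 1 of the 27 had an unadjusted p under 0.05 and 0 were called. With samples of the same day and number as a block, 1 was called lower and 0 higher. In the cell cycle list 29 of 35 genes measured lower, with a median of -0.13, 9 at an unadjusted p under 0.05 and 2 calls without day 5 replicate 2. The medians were -0.11 for heat shock, -0.09 for the TCA cycle and -0.06 for both oxidative phosphorylation and ribosome biogenesis. In each of the other lists named here 1 to 3 genes had an unadjusted p under 0.05. They were -0.04 for mitochondrial ribosomal proteins and -0.01 for ER stress and aminoacyl-tRNA synthetases. They were 0.01 for antioxidant defence, 0.07 for the vacuolar ATPase and 0.11 for the ecdysone response.

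**Figure D3:**
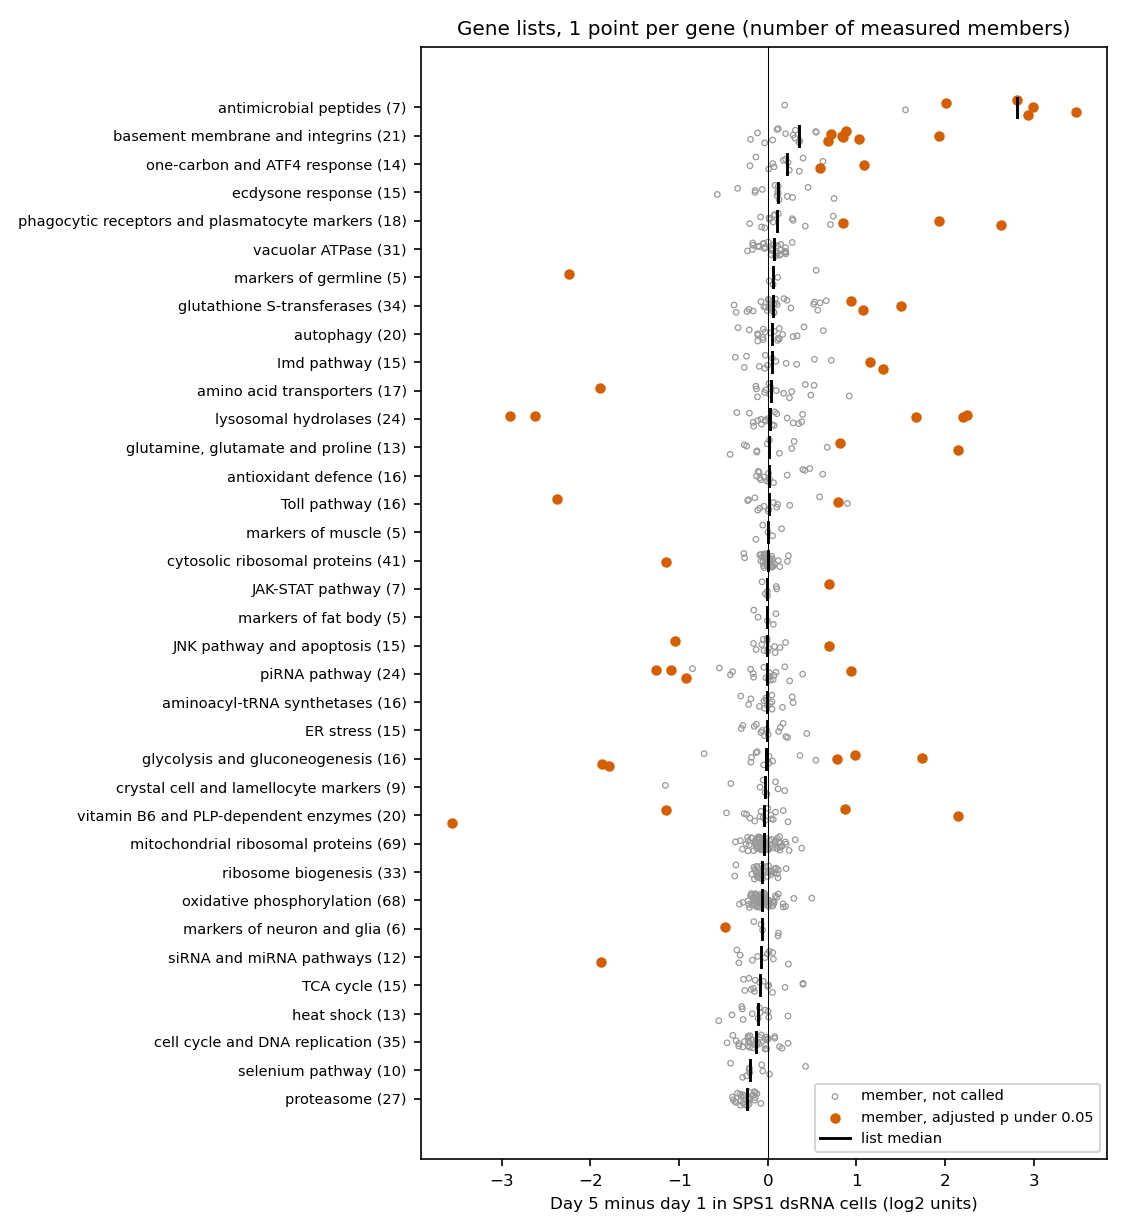
Day 5 minus day 1 in SPS1 dsRNA cells (log2 units, horizontal) for the members of 36 gene lists (vertical, with the number of measured genes), 1 point per gene. Filled orange points are called, open grey points are not, and black bars are list medians; the antimicrobial peptide list has the highest median, 2.81, and the proteasome list the lowest, -0.23.

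Day 3 replicate 2 is the mean of 2 arrays, and in the technical array of that pair the 3′ over 5′ excess of the actin controls was 1.04, against 0.172 to 0.545 in the other treated arrays. The day 3 counts are therefore also given without that array, chosen after seeing the data. From day 1 to day 3, 18 probe sets were called (0.0959%), 7 higher (0.0373%) and 11 lower (0.0586%). From day 3 to day 5, 35 were called (0.186%), 30 higher (0.16%) and 5 lower (0.0266%). The unadjusted p was under 0.05 for 1158 probe sets from day 1 to day 3. Without the technical array 16 of the 18 and 26 of the 35 were called, and no others. The gene sgll was at 5.53 and 5.48 at day 3, having fallen by then (difference -2.37, adjusted p = 7.956e-05), and it went lower by day 5 (difference -1.19, adjusted p = 0.02828). Rpp14b was at 7.37 and 7.61, a rise of 2.30 by day 3 (adjusted p = 4.56e-05) and of 1.15 after it (adjusted p = 0.02716). In both the day 3 values lay between those of the other days and the 2 day 3 samples were close.

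Other early falls were CG1572 (-1.95, adjusted p = 0.0008842), gammaTub37C (-1.54, adjusted p = 0.01382), pst (-1.53, adjusted p = 0.0005247) and CG32280 (-1.50, adjusted p = 0.0005247). For CG1572 and pst no further change from day 3 to day 5 passed the test, at -0.50 and -0.35. Early rises were regucalcin, a calcium-binding protein gene (1.50, adjusted p = 0.03872), CG14273 (1.28, adjusted p = 0.04288), CG3085 (1.09, adjusted p = 0.02515) and CG3348 (0.95, adjusted p = 0.03936). Of the genes named here with a call at day 3, CG14273 lost it without the technical array (1.24, adjusted p = 0.05525).

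Later changes fell between day 3 and day 5. CG4250 rose by 2.06 (adjusted p = 0.02809), ome by 2.02 (adjusted p = 0.04386), CG8501 by 1.97 (adjusted p = 0.01917), CG4259 by 1.90 (adjusted p = 0.02828) and CG32170 by 1.64 (adjusted p = 0.02828). CG32170 had differed by only 0.01 at day 3. The Imd inhibitors pirk and PGRP-LF rose by 1.36 (adjusted p = 0.03029) and 1.23 (adjusted p = 0.02828) in this interval, after differences of -0.07 each up to day 3. Oat rose by 1.26 (adjusted p = 0.02828). For egr the probe set described above rose by 0.39 (adjusted p = 0.4679). A second egr probe set rose by 0.79 (adjusted p = 0.03535), a call lost without the technical array (0.68, adjusted p = 0.1423). CG3625 fell by 2.16 (adjusted p = 0.03279), Nnf1b fell by a further 1.46 (adjusted p = 0.01917) and Ctl1, a choline transporter-like gene, fell by 1.48 (adjusted p = 0.01917).

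In 14 of the 15 largest falls both day 3 values were below every day 1 value (13 without the technical array). The same held in 81% of all called falls and 6.99% of all probe sets. In 12 they also stayed above both day 5 values, as in 0.97% of all. In 5 of the 15 largest rises both day 3 values were above every day 1 value, as in 39.8% of all called rises and 3.89% of all probe sets. The largest rises thus did not stand out from the called rises in this. Day 3 replicate 2 alone was above in all 15, as in 15.3% of all. These genes were chosen by a difference from the same day 1 samples, and rises and falls were not tested against each other. Mtk was at 6.50 in day 3 replicate 1 and at 8.55 in replicate 2, and AttD at 8.21 and 9.66. The day 3 samples thus differed from each other in the antimicrobial genes, whose list mean was 7.12 in replicate 1 and 8.31 in replicate 2, against 6.79 to 7.31 at day 1 and 9.55 and 9.08 at day 5. Without the technical array the list mean of replicate 2 was 8.36. No antimicrobial peptide gene was called by limma at day 3, where 2 of the 7 had an unadjusted p under 0.05 and DptB had the lowest adjusted p, 0.3566.

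**Figure D4:**
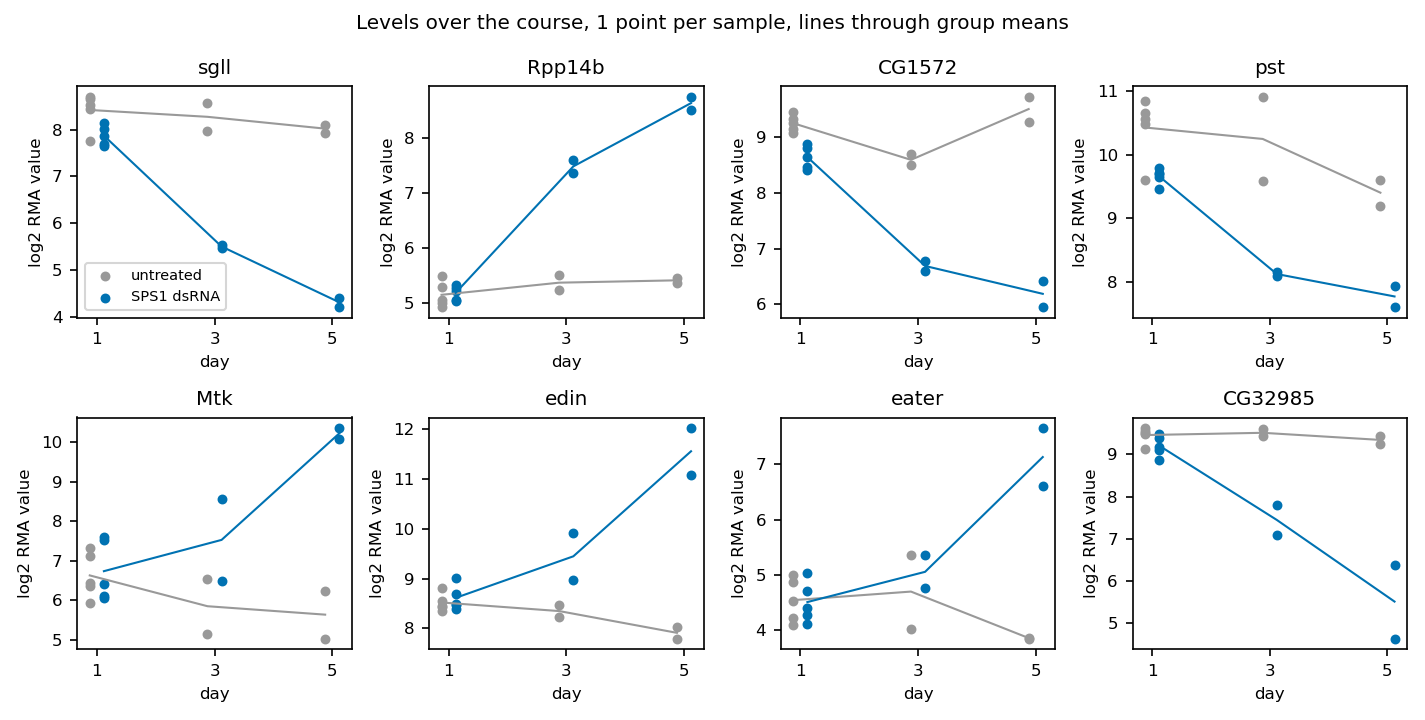
log2 RMA value (vertical) by day (horizontal) of 8 genes in SPS1 dsRNA cells (blue) and untreated cells (grey), 1 point per sample (5 at day 1, 2 at days 3 and 5), with lines through the group means. The genes sgll, Rpp14b, CG1572 and pst had moved by day 3 (each with a call), while Mtk, edin, eater and CG32985 had no call at day 3, and their day 3 samples were more spread.

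In untreated cells the same contrast of day 5 with day 1 gave 0 called probe sets (0%) by limma, although 2239 had an unadjusted p under 0.05, against 2083 in treated cells. With all 6 groups in 1 fit, which uses a wider pool of samples for the spread, 35 were called in untreated and 617 in treated cells. Of the 221 called rises in treated cells, 122 (55.2%) were also higher at day 5 in untreated cells, where 43.3% of all probe sets were. Of the 174 called falls, 101 (58%) were also lower in untreated cells, where 56.7% of all were. The median difference of the called rises was 0.89 in treated and 0.04 in untreated cells, and that of the called falls was -0.98 and -0.05. Without untreated day 1 replicate 4 the shares were 54.8% (44% of all) and 63.2% (56% of all).

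The difference of the courses, treated minus untreated, was tested in 1 fit of all 6 groups. It was called for 263 probe sets (1.4%), 126 higher (0.671%) and 137 lower (0.73%). With samples of the same day and number as a block, 1280 were called (6.82%), 591 higher (3.15%) and 689 lower (3.67%). All 263 were among these 1280. Without untreated day 1 replicate 4 the first count was 215, and the count with the block was 966, 471 higher and 495 lower. It was 145 without treated day 5 replicate 1 and 400 without replicate 2, 112 without untreated day 5 replicate 1 and 144 without replicate 2. Of the 395 probe sets called in treated cells, 200 (50.6%) were also called for the difference of the courses, and these made up 76% of its 263 calls. Without untreated day 1 replicate 4, 180 of the 395 were. The 2 tests share the treated samples.

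The 30 largest changes were chosen by their treated difference, which is part of this test. Among the 15 largest rises 14 passed it, and among the 15 largest falls 12 did. The exceptions were CG5399 (1.39, adjusted p = 0.5917), Ids (-2.88, adjusted p = 0.1205), Hexo2 (-1.71, adjusted p = 0.3885) and GNBP3 (-1.62, adjusted p = 0.2826). With the block these 4 had adjusted p = 0.0002363, 2.772e-05, 0.01626 and 0.0004177. Without untreated day 1 replicate 4 the same 26 genes passed, with sgll at -2.99 (adjusted p = 6.572e-06), CG32985 at -3.50 (adjusted p = 0.0007582) and Mctp at -2.82 (adjusted p = 0.0245). In untreated cells CG5399 differed by 0.91 and Hexo2 by -0.91, in the same direction as in treated cells. For pst the untreated difference was -1.02 and that of the courses -0.86 (adjusted p = 0.5715, and 0.2038 with the block). For GstO3 they were 0.92 and 0.15 (adjusted p = 0.9725, and 0.8024 with the block). The difference of the courses leaves out any gap already present at day 1, when treated cells had already been given dsRNA. Means of pst in treated and untreated cells were 9.66 and 10.43 at day 1 and 7.78 and 9.40 at day 5. Untreated day 1 replicate 4 was at 9.60. Day 1 means were 7.87 and 8.42 for sgll and 5.19 and 5.16 for Rpp14b. These day 1 gaps were not tested here. For 45 of the 395 called probe sets the untreated difference had the same sign and was 50% or more of the treated one, and for 47 without untreated day 1 replicate 4. The same share over all probe sets was not counted.

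For the antimicrobial peptides the courses ran apart. Mtk differed by 3.48 in treated and -0.99 in untreated cells, so that the courses differed by 4.46 (adjusted p = 0.006881). The list's median was -0.24 in untreated cells, and 5 of its 7 genes were called higher for the difference of the courses, 6 with the block. PGRP-LF differed by 1.16 and -1.15 and pirk by 1.30 and -0.62, and the courses differed by 2.31 (adjusted p = 0.00453) and 1.92 (adjusted p = 0.00641). In the Imd list 3 of 15 genes were called higher, and with the block 6, among them the transcription factor gene Rel (0.73, adjusted p = 0.001347 with the block). In the basement membrane list 5 of 21 were called higher, and 9 with the block. The lysosomal list had 4 of 24 higher and 0 lower, and with the block 8 and 2. Without untreated day 1 replicate 4, 2 Imd and 4 basement membrane genes were called higher without the block, and the other counts of these 4 lists were the same.

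Cell cycle and ribosome biogenesis genes had no call inside the treated course and none for the difference of the courses without the block. In that test without the block 15 of 35 and 4 of 33 had an unadjusted p under 0.05. The share of all probe sets at that level is not given here, so these counts have no background. With the block, 11 of 35 cell cycle and DNA replication genes were called lower and 0 higher. PCNA, the sliding clamp of DNA polymerase, differed by -0.33 in treated and 0.16 in untreated cells, a difference of the courses of -0.49 (adjusted p = 0.003991 with the block). Cdc6, which loads the replicative helicase, differed by -0.39 and 0.47, and the courses by -0.86 (adjusted p = 0.001861 with the block). Of 33 ribosome biogenesis genes 10 were called lower and 0 higher with the block, among them Tif-IA, an initiation factor of RNA polymerase I (-0.45, adjusted p = 0.01819). The ribosome biogenesis list median was -0.06 in treated and 0.22 in untreated cells, and that of the cell cycle list -0.13 and 0.16. For ribosome biogenesis the larger move was thus the rise in untreated cells. Without untreated day 1 replicate 4, 7 of the cell cycle and 4 of the ribosome biogenesis genes were called lower with the block. PCNA, Cdc6 and Tif-IA then had adjusted p = 0.01173, 0.005029 and 0.04011.

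**Figure D5:**
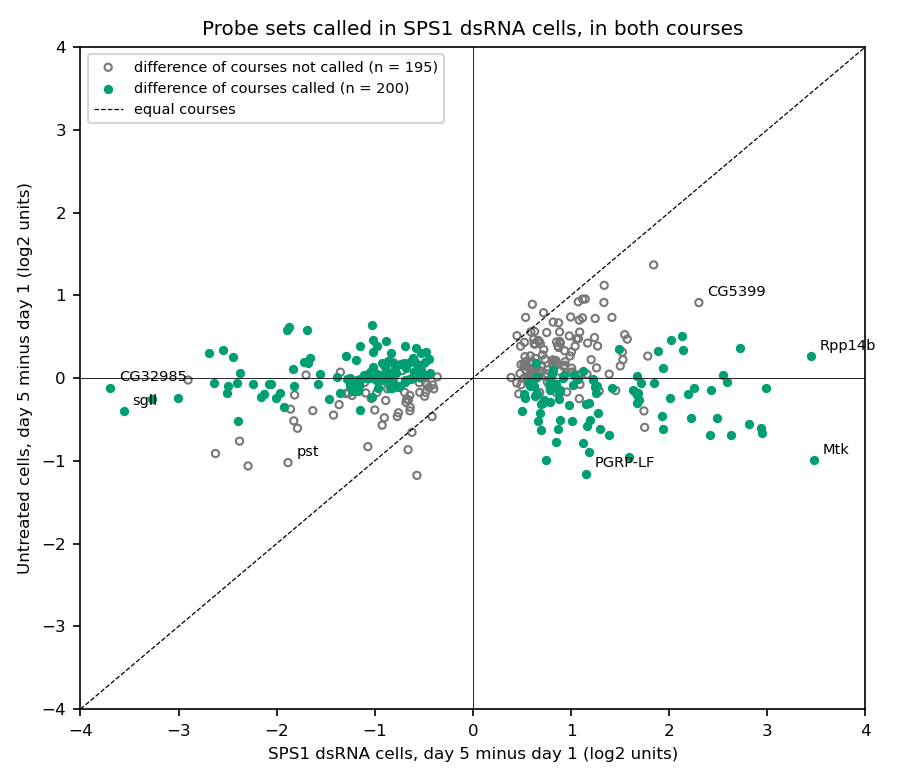
Day 5 minus day 1 (log2 units) in SPS1 dsRNA cells (horizontal) and in untreated cells (vertical) for the 395 probe sets called in SPS1 dsRNA cells, with the dashed line marking equal courses. The 200 filled points were called for the difference of the courses without the block and the 195 open points were not; medians on the vertical axis are 0.04 for the called rises and -0.05 for the called falls.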

How the data were processed

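The deposited table holds log2 values made by the authors with RMA (per the submitters' processing notes, version not given in the sources used here), which can understate changes of weakly expressed genes. No detection calls were used. Groups came from sample titles. Of 18769 probe sets tested, 13647 named 1 gene, 402 several and 4720 none in the platform annotation. The technical day 3 array was averaged with biological replicate 2 of its group. Treated samples of all 3 days (9 after averaging) were fitted with limma (version 3.58.1, in R 4.3.3) and moderated by eBayes, and p-values were adjusted by Benjamini-Hochberg over all probe sets. Residual degrees of freedom were 6 and prior ones 4.21. Fits on the untreated samples and on all 18 samples gave the other contrasts. The labels call the replicates biological without naming separate cultures, so the p-values rest on a spread between samples that may be partly technical. The number of arrays limits the precision. The fitting was tested on simulated data.

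Same-numbered treated and untreated samples of a day deviated together (r from 0.689 to 0.838, over 6843 probe sets of mean log2 above 6). In a group of 2 samples the deviations mirror each other. Replicate 2 therefore repeats the r of replicate 1 at day 3 (0.782) and day 5 (0.712), and swapped numbers would reverse its sign. At day 1 samples of different number were not compared, so pairing by number was not tested against other pairings there. This pairing comes from the data, and the block of day and number follows it. The counts with the block depend on that choice.

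Members and gene lists were chosen with earlier results of these data known. Named genes are the 15 largest called changes in each direction with 1 symbol and groups that do not overlap, called list members, up to 4 further members of each list, the 5 largest differences of the courses and up to 5 called changes of each interval and direction, and Sps2. Genes named beyond this, such as marker genes, Cdc6, PCNA, Tif-IA and Rel, were chosen after their values were seen. Alternatives covered normalization, a filter at a mean of 5, moderation, blocks, the samples used and each replicate left out.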

Additional observations from a re-analysis of the deposited data

Results flagged for a closer look

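For 26 of the 30 largest changes, the treated course differed from the untreated course at an adjusted p under 0.05 (limma, all 6 groups). Over all probe sets 1.4% were called in that test. The 30 genes were chosen by their treated difference, which is part of the same contrast, so the count of 26 is not independent support. The differences on the log2 scale were positive for Mtk (4.46), edin (3.55), AttD (3.37), eater (3.32), Rpp14b (3.19), DptB (3.12), CG4259 (2.97), CG13077 (2.71), CG4250 (2.64), Nepl4 (2.57), ome (2.52), LManI (2.39), Ect3 (2.37) and CG8501 (2.36). They were negative for CG32985 (-3.58), sgll (-3.16), CG3625 (-3.02), CG34008 (-2.99), Mctp (-2.88), jtb (-2.77), CG1572 (-2.70), Karl (-2.58), CG4210 (-2.43), Nnf1b (-2.34), CG44014 (-2.33) and Atox1 (-1.88).

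In 6 of 62 groups of 5 samples, 1 sample stood far from the rest of its group, where chance gives about 3.1. Untreated day 1 replicate 4 was the low sample for CG32985 (9.13), sgll (7.76) and Mctp (7.96). Treated day 1 replicate 5 was the high sample for CG34008 (8.53) and Nnf1b (8.21), and treated day 1 replicate 2 was the low sample for CG44014 (7.83).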

How the results depend on the processing

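The count of 395 probe sets in the treated course was 24 with day 1 replicates 1 and 2 only, 162 with replicates 1 and 5 only, 84 in an ordinary linear model and 617 with all 6 groups in 1 fit. Leaving out 1 sample gave 198 to 473 (9 fits), and cyclic loess, array medians, the filter, trend with robust moderation, days 1 and 5 only, day 1 replicates 2, 3 and 4 only and no technical array gave 284 to 473. The share of higher calls, 55.9%, was 70.7% without day 5 replicate 1, 35.6% without replicate 2 and 43.2% with day 1 replicates 1 and 5 only. Replicate numbers are not shown to pair days: deviations of day 1 and day 5 samples correlated at -0.485 for number 1 and -0.56 for number 2, and with the replicate block 3 were called. The untreated count of 0 became 4 with trend and robust moderation, 35 with all 6 groups in 1 fit and 55 with days 1 and 5 only, and stayed 0 in all 7 left-out fits and with the replicate block. The difference of the courses (263) was 1280 with the replicate block of day and number and 112 to 400 in 14 left-out fits. Its other alternatives gave 187 to 342, with 56.9% higher under cyclic loess against 47.9%. Of the values of named genes under alternatives, 542 kept their direction and side of the threshold, 106 kept the direction only, and Sps2 turned to 0.091 (adjusted p = 0.9794) with day 1 replicates 1 and 5 only, where the main value was -0.20. The counts of list members without a day 5 sample, the day 3 counts without the technical array and the blocked counts without untreated day 1 replicate 4 were chosen after seeing the data. Where a setting changed a value, the cause was not tested, apart from fewer samples or genes. With 2 samples at day 5, the number of arrays limits what can be detected.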
